A study of Mus musculus with 26 samples.

Results

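Non-malignant skin epithelial cell lines were compared with carcinoma lines that still expressed E-cadherin, 13 of the 26 mouse skin cell lines of the series. The non-malignant group held 4 lines. C5N, NK and the third keratinocyte line were labelled as immortalised keratinocytes, and P6 came from a benign papilloma. The keratinocyte flag of the third keratinocyte line conflicts with its cell type label, and the number of calls without it is given below. The carcinoma group held 9 lines from squamous cell skin carcinomas labelled without spindle pathology, the elongated form of this tumour. They were PDV, PDVC57, B9, B9ras, B9rassmad, E4, SN161, MSCP1 and MSCP5. SN161 came from a tumour of a Spretus/NIH cross, MSCP1 and MSCP5 from tumours of Spretus/CBA crosses, and the strain of the other 10 lines was not given. All lines were untreated cultures in serum taken in log phase, with 1 Affymetrix M430 array each. A cultured line is a selected population that lacks the stroma and immune cells of a tumour, and the labels point to a single culture for each line. All p-values therefore measure the spread between lines and not between cultures.

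The carcinoma lines were chosen by a measured value, a level of 8 or more at the Cdh1 probe set, so Cdh1 is described here and not tested. Cdh1 encodes E-cadherin, the adhesion protein that joins epithelial cells to each other. Values are log2 RMA values throughout. The lowest chosen line was B9rassmad at 9.13, and the next was E4 at 10.58. Below the threshold were the non-spindle lines MSC7A at 3.54, MSC12 at 3.25 and MSC11B at 3.25, so no non-spindle line lay near it. B9Smad at 8.49 and MSCb1 at 10.02 passed the level but were left out, because the spindle labels of B9Smad conflict and those of MSCb1 do not state its form. The non-malignant lines lay at 11.55 in C5N, 11.60 in NK, 10.46 in the third keratinocyte line and 11.38 in P6. Genes that go with Cdh1 among carcinoma lines were restricted by this choice too.

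Squamous carcinoma of mouse skin is a classical model of stepwise tumour progression, in which keratinocytes form benign papillomas and some of these become carcinomas. Basal keratinocytes carry the keratin pair Krt5 and Krt14, anchor to the basement membrane through hemidesmosomes and depend on the transcription factor Trp63. Simple keratins such as Krt8, Krt18 and Krt19 belong to single-layered epithelia, and Krt8 is a known marker of malignant progression in this model. Advanced tumours can go through an epithelial to mesenchymal transition (EMT), driven by factors of the Snail, Zeb and Twist families, in which E-cadherin is lost.

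Krt8 and Krt18 encode partner keratins that assemble into 1 filament, and their genes are neighbours on chromosome 15. The 250 bases before each start are shown because these genes had some of the larger differences between the groups, and because EMT factors bind the E2 box, CACCTG, in capitals below. Both sequences are from RefSeq, build GRCm38.p6, and run 5′ to 3′ on the strand of the gene. The Krt8 window is chr15:102004343-102004592 on the minus strand and the Krt18 window is chr15:102027966-102028215 on the plus strand, with 23373 bases between them.
Krt8: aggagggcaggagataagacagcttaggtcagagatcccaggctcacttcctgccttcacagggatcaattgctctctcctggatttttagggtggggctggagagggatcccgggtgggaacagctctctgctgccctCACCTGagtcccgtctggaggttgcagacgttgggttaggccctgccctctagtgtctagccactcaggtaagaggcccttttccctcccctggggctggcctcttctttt
Krt18: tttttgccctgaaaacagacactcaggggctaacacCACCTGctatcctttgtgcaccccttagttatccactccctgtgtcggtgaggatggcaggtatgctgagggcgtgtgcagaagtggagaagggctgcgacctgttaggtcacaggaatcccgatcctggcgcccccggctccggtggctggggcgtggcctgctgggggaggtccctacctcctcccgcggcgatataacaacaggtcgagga
Each window held 1 match to CACCTG on either strand, which begins 111 bases before the Krt8 start and 214 bases before the Krt18 start. The same motif stood in 17.2% of 32851 mouse promoter windows of this length. The TATA box letters TATAAA, searched on both strands, had no match in either window and stood in 12.4% of all windows. The GC box and the AP-1 motif had none either, where the GC box was searched as GGGCGG and stood in 32.7% of all windows. The AP-1 letters were TGANTCA, which stood in 6.75%. A match is a description of the letters and not a site shown to be bound.

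Some arrays stood apart or close together before any comparison. Across genes, PDV and MSCP1 correlated at 0.992, PDV and B9ras at 0.990 and B9ras and MSCP1 at 0.988, whereas the median over the 36 carcinoma pairs was 0.947. MSCP1, labelled as a Spretus/CBA line, thus lay closer to PDV than to MSCP5 at 0.933, and B9ras lay closer to PDV than to B9 at 0.952. The Y-linked gene Eif2s3y was at 7.54 in P6, 8.80 in B9, 7.18 in B9rassmad and 8.25 in MSCP5 but between 2.93 and 3.23 in the other 9 lines, B9ras included. The X-inactivation transcript Xist was at 10.73 or more in PDV, MSCP1, B9ras, B9, B9rassmad, E4, SN161 and the third keratinocyte line and at 5.74 or less in C5N, NK, P6, MSCP5 and PDVC57. It thus did not set PDV, MSCP1 and B9ras apart from other lines, and B9 and B9rassmad carried both transcripts. Whether PDV, MSCP1 and B9ras are separate lines was not tested, and results are also given with these 3 arrays averaged. Pairs of non-malignant lines had a median correlation of 0.944 and pairs across the groups 0.939, so the 2 groups were not far apart as wholes.

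The labelled epithelial state was checked against 14 keratinocyte markers. All 14 were above the array median in the 4 non-malignant lines and in PDV, MSCP1, B9ras, B9 and MSCP5, with a mean level from 11.41 to 12.12. PDVC57 had 13 above it and a mean of 10.22. B9rassmad, SN161 and E4 had 12, 10 and 9 above it, with means of 7.16, 7.59 and 7.52. Those 3 lines therefore kept Cdh1 but not the basal keratinocyte profile. Krt5 was at 6.95 in B9rassmad, 5.60 in SN161 and 4.79 in E4, against 11.58 to 13.79 in the other 6 carcinoma lines and 12.86 to 14.01 in the non-malignant lines. Col17a1, a hemidesmosome collagen, was at 3.75, 3.60 and 3.69 in the same 3 lines and at 10.71 or more elsewhere. Trp63 was at 5.96, 4.36 and 4.19 there and at 9.0 or more elsewhere.

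Some fibroblast markers were also high in carcinoma lines, most of all in MSCP5. MSCP5 carried the fibrillar collagens Col1a1 at 12.65, Col1a2 at 13.47 and Col3a1 at 12.25 and the receptor Pdgfrb at 11.48. Col1a1 lay between 3.57 and 4.70 in the other 12 lines. Col3a1 was also at 8.80 in B9rassmad and 7.43 in E4, against 4.13 to 5.13 in the non-malignant lines. Pdgfra was between 7.39 and 7.81 in SN161, MSCP1, B9ras and B9, against 4.88 to 5.81 in the non-malignant lines. The mean over 10 fibroblast markers was 7.48 in MSCP5, 4.07 to 5.19 in the other 8 carcinoma lines and 4.18 to 4.47 in the non-malignant lines. The other 6 markers of the list, Dcn, Lum, Dpt, Thy1, Fap and Pdgfra, were below the array median in MSCP5. MSCP5 had 4 of the 10 above it and B9rassmad 5. Markers of melanocytes, leukocytes and endothelial cells had mean levels of 4.52 to 5.22, 4.76 to 6.10 and 4.12 to 4.74 over the 13 lines. Single markers were higher, among them the monocyte genes Cd14, at 10.11 in SN161 and 8.42 in the third keratinocyte line, and Cd68, highest in SN161 and at 7.77 in the third keratinocyte line. In whole cultures, fewer cells of a type and less RNA per cell cannot be told apart, and the part of the fibroblast transcripts in the results below was not tested beyond leaving MSCP5 out.

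**Figure D1:**
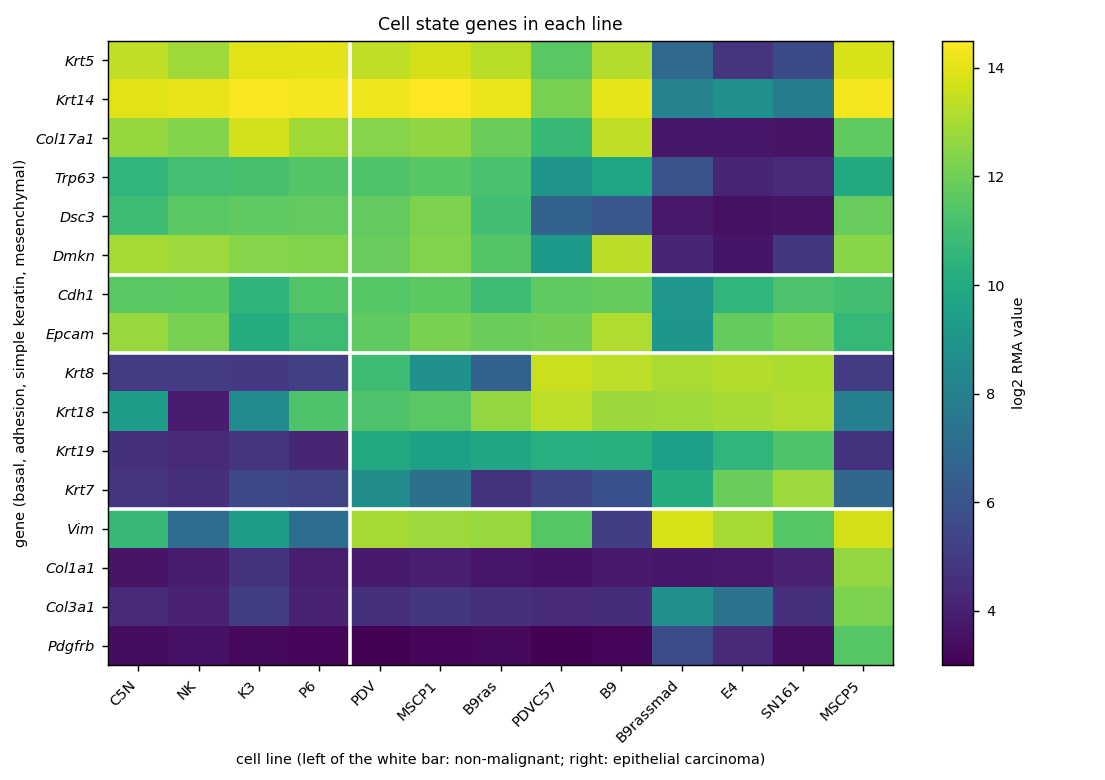
Log2 RMA levels (colour scale) of basal, adhesion, simple keratin and mesenchymal genes (rows) in the 4 non-malignant lines (left of the vertical bar; K3 is the third keratinocyte line) and the 9 epithelial carcinoma lines (right), 1 array per line. B9rassmad, E4 and SN161 are low for Krt5, Col17a1 and Trp63 while Cdh1 is 9.13 or more, and MSCP5 alone combines Krt5 at 13.79 with Col1a1 at 12.65. Colours compare lines within a row, since levels of different probe sets do not share a scale.

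The first question was which transcripts separate malignant from non-malignant lines while E-cadherin is kept. Of 11981 genes tested, 25 were called at an adjusted p under 0.05 (0.209%), 12 higher (0.1%) and 13 lower (0.109%) in the carcinoma lines. At an unadjusted p under 0.05 there were 1422 genes (11.9%), 628 higher (5.24%) and 794 lower (6.63%). All 25 differed by 2-fold or more, with adjusted p-values from 0.0272 to 0.0471, and in 21 of them the groups did not overlap. Over all genes tested the groups did not overlap in 127 (1.06%), 64 higher (0.534%) and 63 lower (0.526%). The median log2 difference of all genes tested was 0.00, and errors of differences are standard errors (SE) of the fit.

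Krt19 had the largest called rise. This simple keratin, also found in hair follicle stem cells, was at 4.59 in C5N, 4.37 in NK, 4.72 in the third keratinocyte line and 4.22 in P6. In the carcinoma lines the mean was 9.56 ± 1.91 (SD, n = 9), with 4.69 in MSCP5, 9.49 in B9rassmad as the next lowest and 11.34 in SN161 as the highest. Thus 8 of 9 carcinoma lines expressed it above the array median and none of the non-malignant lines did, and MSCP5 fell within the non-malignant range. The difference was 5.08 (SE 0.90, adjusted p = 0.0455, two-sided exact permutation p over 715 divisions of the lines = 0.0028). Krt19 was called in only 2 of the 13 fits that left out 1 line, those without MSCP5 and without B9.

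Krt8 had a larger but more variable difference that was not called. It lay at 5.04 in C5N, 5.03 in NK, 4.89 in the third keratinocyte line and 5.17 in P6. The carcinoma lines ranged from 4.99 in MSCP5 over a median of 13.02 to 13.57 in PDVC57, with B9ras at 6.59 and MSCP1 at 8.81. The difference was 5.80 (SE 1.53, adjusted p = 0.151). It was 6.53 (SE 1.21, adjusted p = 0.0225) without MSCP5 and 5.48 (SE 1.56, adjusted p = 0.177) without B9. MSCP5 was the lowest carcinoma line here, so the lower p without it is not a call. The 3 probe sets of Krt8 gave differences of 5.80, 5.89 and 5.19. Its partner Krt18 was already present in some non-malignant lines, at 9.45 in C5N, 8.57 in the third keratinocyte line and 11.32 in P6 but 3.88 in NK. The carcinoma values of Krt18 were 7.98 in MSCP5 at the lowest, 12.78 at the median and 13.35 at the highest, so the groups overlapped (difference 3.76, SE 1.21, adjusted p = 0.234). In C5N, the third keratinocyte line and P6, Krt18 was thus within the carcinoma range while Krt8 was near the array median.

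Krt7, a further simple keratin, was at 4.77, 4.61, 5.50 and 5.38 in C5N, NK, the third keratinocyte line and P6. Only 4 carcinoma lines exceeded 8, with 12.80 in SN161, 11.92 in E4, 10.14 in B9rassmad and 8.63 in PDV, and B9ras was at 4.69. The difference of 3.10 (SE 1.37) was not called (adjusted p = 0.389). The 3 highest of these lines are those low in Krt5, Col17a1 and Trp63. Of the 12 tested keratins on the list of basal and simple keratins, 1 was called, 4 had a difference above 0 (Krt7, Krt8, Krt18 and Krt19) and the median was -2.0. Krt14 was 14.21 ± 0.19 (SD, n = 4) in the non-malignant lines and 12.03 ± 2.92 (SD, n = 9) in the carcinoma lines, with 7.88 to 8.77 in B9rassmad, SN161 and E4 (adjusted p = 0.573).

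Nr2f1, an orphan nuclear receptor, was at 3.68, 3.51, 4.41 and 3.79 in C5N, NK, the third keratinocyte line and P6. The lowest carcinoma value was 5.71 in B9, the median 7.74 and the highest 9.30 in B9rassmad, with no overlap. The difference was 3.64 (SE 0.48, adjusted p = 0.0272), and this gene was called in 9 of the 13 fits that left out 1 line.

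Twist2, a basic helix-loop-helix factor of the EMT family, was at 4.87 in C5N, 4.99 in NK and 5.02 in the third keratinocyte line, and at 7.03 in the papilloma line. All carcinoma lines lay above these, from 7.17 in SN161 over a median of 8.85 to 10.71 in B9rassmad. The gap between P6 and the lowest carcinoma line was thus small beside the difference of 3.31 (SE 0.56, adjusted p = 0.0435). Twist2 was the 1 called member of 12 tested EMT transcription factors, whose median difference was 0.57, with 8 above 0.

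Zeb2, a repressor of Cdh1, lay at 3.51 to 4.13 in the non-malignant lines. The carcinoma lines ran from 4.13 in B9 over a median of 6.60 to 8.66 in B9rassmad (difference 2.74, SE 0.64, adjusted p = 0.0989). B9 thus lay with the non-malignant lines, and the other 8 carcinoma lines were at 5.70 or more. Without B9 the adjusted p was 0.032, and without MSCP5 it was 0.0641. B9 was the lowest carcinoma line here, so the lower p without it is not a call. Related factors were high in some of the lines. Zeb1 was 8.66 in MSCP5 and 7.88 in E4 against 5.28 to 5.86 in the non-malignant lines (adjusted p = 0.688). Snai1 was 7.31 in MSCP5 against 4.10 to 4.51 (adjusted p = 0.767), and Prrx1 was 8.44 in MSCP5 and 7.69 in B9rassmad against 3.68 to 4.31 (adjusted p = 0.503). Snai2, a Snail family factor that basal keratinocytes express, was 11.55 to 12.48 in the non-malignant lines and lowest in E4 at 8.22 and SN161 at 8.69 (adjusted p = 0.427).

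Flot2, the scaffold protein flotillin-2 of membrane microdomains, had the second largest called rise. It was at 4.21 in C5N, 3.47 in NK, 7.05 in the third keratinocyte line and 6.23 in P6. The carcinoma lines lay between 8.28 in MSCP1 and 9.93 in B9rassmad with a median of 9.43, above every non-malignant line. The difference was 4.04 (SE 0.55, adjusted p = 0.0272), but a further Flot2 probe set gave 1.29, again with no overlap. The size of this change therefore depends on the probe set. Flot2 was the 1 called member of 21 tested genes of integrin and cytoskeletal adhesion (median 0.14).

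Timp1, a secreted inhibitor of matrix metalloproteinases, was at 9.28, 9.17, 9.87 and 7.81 in C5N, NK, the third keratinocyte line and P6. The carcinoma lines ranged from 10.04 in SN161 over a median of 11.26 to 11.87 in MSCP5, with no overlap (difference 2.18, SE 0.36, adjusted p = 0.0435). It was the 1 called member of 21 tested matrix proteases and inhibitors, whose median was 0.16. Ly75, the endocytic receptor DEC-205, was at 4.91, 6.23, 6.84 and 6.05 in the same order. Its carcinoma range was 7.33 to 8.43 around a median of 7.97, again without overlap (difference 1.92, SE 0.31, adjusted p = 0.0435).

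The other 6 genes that rose had differences from 1.41 to 3.19. Gkap1, an anchoring protein of cGMP-dependent kinase, was at 3.5, 3.84, 6.86 and 5.46 in C5N, NK, the third keratinocyte line and P6 and between 7.30 and 9.42 in the carcinoma lines. Dynap, a dynactin-associated membrane protein, was at 7.26, 7.92, 9.94 and 7.57 and between 10.05 and 12.48. Stk39, a kinase that controls ion cotransporters, rose by 2.18 (SE 0.38) although its ranges touched, with P6 at 6.89 and SN161 at 6.72. In Gkap1, Dynap and Flot2 the third keratinocyte line was the non-malignant line nearest to the carcinoma lines. Spata5l1, an AAA ATPase, rose by 1.99 (SE 0.36) from 3.63 to 4.16 in the non-malignant lines, which is background on these arrays. Rmdn2, of a family of microtubule regulators, rose by 1.66 (SE 0.30) from 3.94 to 4.49 in the non-malignant lines, also background. Its carcinoma values ran from 5.06 in E4 to 6.93 in B9rassmad, and its other probe sets gave 1.28, 1.19 and 0.26. Specc1, a coiled-coil protein of the cytospin family, rose by 1.41 (SE 0.20). Specc1 was tight in the non-malignant lines, from 8.55 to 8.85, and lay between 9.57 and 10.69 in the carcinoma lines.

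**Figure D2:**
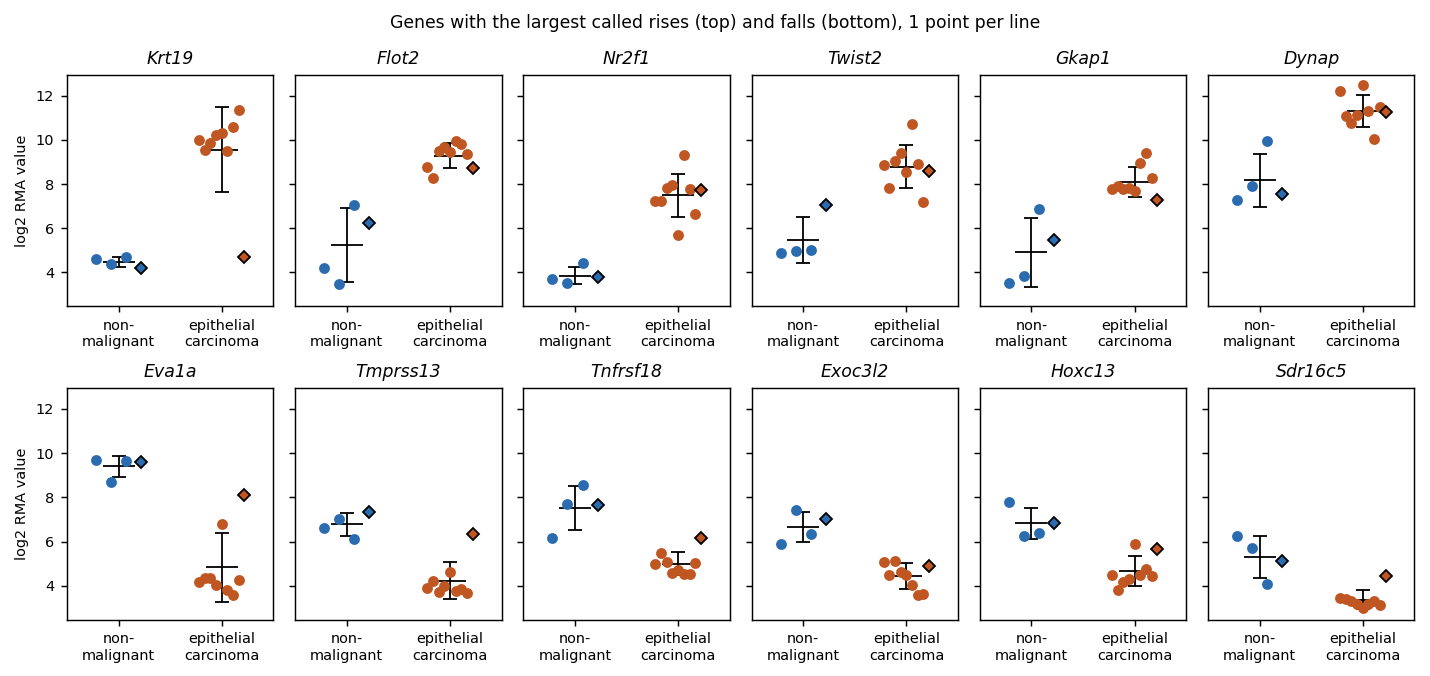
Log2 RMA values (vertical axis) of the 6 called genes with the largest rise (top row) and the 6 with the largest fall (bottom row) in the 4 non-malignant lines (blue) and 9 epithelial carcinoma lines (orange), 1 point per line, with the group mean and SD in black. Diamonds mark P6 among the non-malignant and MSCP5 among the carcinoma lines. MSCP5 lies with the non-malignant lines for Krt19 at 4.69 and nearest to them for Eva1a at 8.12, and P6 is nearest to the carcinoma lines for Twist2 at 7.03.

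The falls were led by Eva1a, a membrane protein linked to autophagy and cell death. It was at 9.69 in C5N, 8.69 in NK, 9.63 in the third keratinocyte line and 9.59 in P6. The carcinoma lines ranged from 3.58 in E4 over a median of 4.26 to 8.12 in MSCP5, with B9 next at 6.78. The groups did not overlap, and 7 of the 9 carcinoma lines were at or below the array median, the level of background. The difference was -4.57 (SE 0.74, adjusted p = 0.0435).

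Tmprss13, a membrane serine protease of stratified epithelia, was at 6.63, 7.03, 6.11 and 7.34 in C5N, NK, the third keratinocyte line and P6. The carcinoma median was 3.89 and the lowest value 3.69, but MSCP5 lay at 6.33, inside the non-malignant range (difference -2.55, SE 0.43, adjusted p = 0.0435). Hoxc13, the homeobox factor of hair and nail, was at 7.80, 6.24, 6.38 and 6.86, and between 3.81 and 5.88 in the carcinoma lines (difference -2.16, SE 0.39, adjusted p = 0.0455). The 2 highest carcinoma values were B9 at 5.88 and MSCP5 at 5.65. Sdr16c5, an epidermal retinol dehydrogenase, was at 6.27 in C5N, 5.70 in NK, 4.06 in the third keratinocyte line and 5.12 in P6. Its carcinoma values ran from 2.99 to 4.45, so it was near background in all 9 lines and the third keratinocyte line overlapped with MSCP5 (difference -1.92, SE 0.35, adjusted p = 0.0471).

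Acvr1b, the type I activin receptor ALK4, was at 11.35, 9.93, 10.56 and 10.06 in C5N, NK, the third keratinocyte line and P6. The carcinoma lines lay between 7.54 in B9rassmad and 9.37 in MSCP5 around a median of 8.65, with no overlap (difference -1.84, SE 0.33, adjusted p = 0.0471). A second probe set of this gene was near background and gave -0.28. Acvr1b was the 1 called member of 29 tested TGF-beta and activin genes, of which 17 had a difference above 0 (median 0.16). The activin antagonist Fst was 12.24 to 13.37 in the non-malignant lines, and in the carcinoma lines it was lowest in B9rassmad at 8.25, E4 at 8.41 and SN161 at 8.49 (difference -2.01, SE 0.89, adjusted p = 0.388). Tgfbr2, the type II TGF-beta receptor, differed by 1.16 (SE 0.44, adjusted p = 0.309).

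Ephb3, an ephrin receptor kinase, was at 9.50, 10.08, 9.65 and 9.54 in C5N, NK, the third keratinocyte line and P6. The carcinoma lines ranged from 6.84 in B9rassmad over a median of 7.96 to 8.98 in MSCP5, all below (difference -1.76, SE 0.30, adjusted p = 0.0435). Tnfrsf18, the TNF receptor family member GITR, was at 6.17, 7.69, 8.56 and 7.66. The carcinoma values of 4.52 to 6.16 ended just under C5N, and the highest was MSCP5 (difference -2.52, SE 0.39, adjusted p = 0.0435).

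The other 6 genes that fell had differences from -2.22 to -1.06. Exoc3l2, an exocyst-related protein, fell by 2.22 (SE 0.34) from 5.88 to 7.41 in the non-malignant lines to 3.60 to 5.14 in the carcinoma lines. Stard5, a sterol carrier, fell by 1.66 (SE 0.30), and its other 3 probe sets gave -1.63, -2.13 and, at background, 0.00. Gnb1l, a WD-repeat protein, fell by 1.61 (SE 0.28), and Ssbp3, a cofactor of LIM homeodomain factors, fell by 1.56 (SE 0.26). Rcan1, an inhibitor of calcineurin, fell by 1.10 (SE 0.19) with MSCP5 at 8.47 just below NK at 8.55. Zfp282, a zinc finger protein and the 13th of the falls, is named here after its value was seen and fell by 1.06 (SE 0.18).

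Over all genes tested, 5.24% were higher and 6.63% lower at an unadjusted p under 0.05. Among genes with a known part in mouse skin tumours, 28 were tested and none was called in limma, while 4 were higher and 3 lower at that level. Their median difference was 0.18, with 15 above 0. Fosl1, the AP-1 factor Fra-1, came nearest. It was at 6.11, 7.48, 8.78 and 7.95 in C5N, NK, the third keratinocyte line and P6. The carcinoma lines lay between 9.03 in MSCP1 and 11.01 in B9 around a median of 9.75, without overlap (difference 2.29, SE 0.46, adjusted p = 0.0654). A second Fosl1 probe set gave 1.81 and no overlap. The adjusted p of Fosl1 was 0.0272 without MSCP5 and 0.0595 without B9. Of 11 tested AP-1 genes, 6 had a difference above 0 and the median was 0.10.

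Hmga2, an oncofetal chromatin protein, was at 4.98 in C5N and 8.03 in NK, but at 10.86 in the third keratinocyte line and 10.49 in P6. The carcinoma range of 10.13 to 12.50 therefore overlapped (difference 2.87, SE 0.89, adjusted p = 0.22). Ptgs2, the inducible cyclooxygenase, was at 4.94 in C5N but at 11.65 in the third keratinocyte line, 10.96 in P6 and above both in NK, and the carcinoma lines had a median of 11.84 and a highest value of 13.27 in SN161 (adjusted p = 0.518). Cdkn1a, the CDK inhibitor p21, was 10.95 ± 0.78 (SD, n = 4) and 9.11 ± 1.15 (SD, n = 9), with MSCP5 at 11.06, B9rassmad at 10.40 and B9 at 10.26 inside the non-malignant range (adjusted p = 0.234). Cdkn2a was 6.18 ± 1.26 (SD, n = 4) and 7.39 ± 0.98 (SD, n = 9), and Cdkn2b was 9.13 ± 0.51 (SD, n = 4) and 8.58 ± 0.97 (SD, n = 9). Both genes of this tumour suppressor locus were above the array median in all 13 lines, with adjusted p-values of 0.447 and 0.722. Cdkn2a was near background, however, in P6 at 5.27, C5N at 5.35 and MSCP5 at 5.40, against array medians of 5.14, 5.08 and 5.11.

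Notch1, a receptor that promotes keratinocyte differentiation, was 10.18 to 11.25 in the non-malignant lines. It remained at 11.46 in MSCP5, 11.06 in MSCP1, 10.08 in B9ras and 9.99 in PDV but was 5.90 in B9rassmad, 6.73 in SN161 and 7.18 in E4 (difference -2.14, SE 0.96, adjusted p = 0.40). Of 13 tested Notch genes none was called in limma and the median was -0.45. At an unadjusted p under 0.05, 4 were lower and 1 higher (6.63% and 5.24% over all genes tested). Nrp1, a coreceptor for VEGF, and Vegfa differed by 1.09 (SE 0.80) and 0.98 (SE 0.56), with adjusted p-values of 0.645 and 0.519. Itgb4, the hemidesmosome integrin, differed by -0.67 (SE 0.97, adjusted p = 0.848) and was lowest in B9rassmad at 7.01.

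Dusp4, a phosphatase induced by ERK signalling, was at 6.17, 6.62, 7.13 and 8.19 in C5N, NK, the third keratinocyte line and P6. The carcinoma lines lay between 7.87 in MSCP1 and 9.91 in SN161 around a median of 8.68 (difference 1.83, SE 0.39, adjusted p = 0.0767). The adjusted p was 0.0481 without MSCP5 and 0.0815 without B9. P6 was the 1 non-malignant line inside that range. Of 20 tested Ras and MAP kinase feedback genes, 15 had a difference above 0 and the median was 0.29. None was called in limma, and 3 were higher at an unadjusted p under 0.05 (5.24% over all genes tested). Epgn, the EGF family ligand epigen, was at 9.76, 9.71, 11.93 and 9.92 in the non-malignant lines. It was at 10.99 in B9 and 10.25 in MSCP5 but between 4.33 and 5.97 in the other 7 carcinoma lines (difference -4.25, SE 1.27, adjusted p = 0.205). Dusp4 and Epgn were chosen after their values were seen, as were Krt7, Krt14, Krt18, Trp63, Epcam and Vim.

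Whole gene lists showed the same split of few calls and uneven lines. Of 38 lists, 5 held a called member, 1 gene each. Over all genes tested, 0.209% were called, and 5.24% were higher and 6.63% lower at an unadjusted p under 0.05. The counts of the lists were not tested against these shares. Squamous differentiation genes, which build the cornified layer, had 25 tested members, and all 25 had a difference of 0 or below (median -1.0). None was called in limma and 2 were lower at an unadjusted p under 0.05. By line, the mean level of the 27 measured members was 8.66 in NK, 7.72 in P6, 6.58 in C5N and 6.50 in the third keratinocyte line. The carcinoma lines spanned 4.92 in E4 to 8.17 in MSCP5, and B9 at 7.19, B9ras at 6.70 and MSCP1 at 6.55 lay within the non-malignant range.

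Desmosome genes, the adhesion plaques of stratified epithelium, had a median of -0.88 over 11 tested members, 3 above 0 and none called in limma, with 3 lower at an unadjusted p under 0.05. Their mean ran from 6.23 in B9rassmad to 9.76 in MSCP5, against 8.33 to 9.36 in the non-malignant lines. Mesenchymal genes had a median of 0.70 over 20 tested members, 18 of them above 0, with none called in limma and 2 higher and 1 lower at an unadjusted p under 0.05. Their mean was 10.73 in MSCP5, 7.24 in B9rassmad and 6.82 in E4, against 5.58 to 6.06 in the non-malignant lines and 5.36 in B9. Vim, the mesenchymal filament vimentin, was 7.12 to 10.69 in the non-malignant lines and 11.45 to 13.80 in 8 carcinoma lines, but 5.14 in B9 (difference 3.31, SE 1.35, adjusted p = 0.349). Without B9 the difference was 4.15 (SE 0.68, adjusted p = 0.032), and without MSCP5 it was 3.08 (SE 1.39, adjusted p = 0.318). B9 was the 1 carcinoma line that went against the difference, so the lower p without it is not a call. Mitosis and replication genes had a median of 0.10 over 27 tested members, with 20 above 0, none called in limma and 3 higher and 1 lower at an unadjusted p under 0.05.

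**Figure D3:**
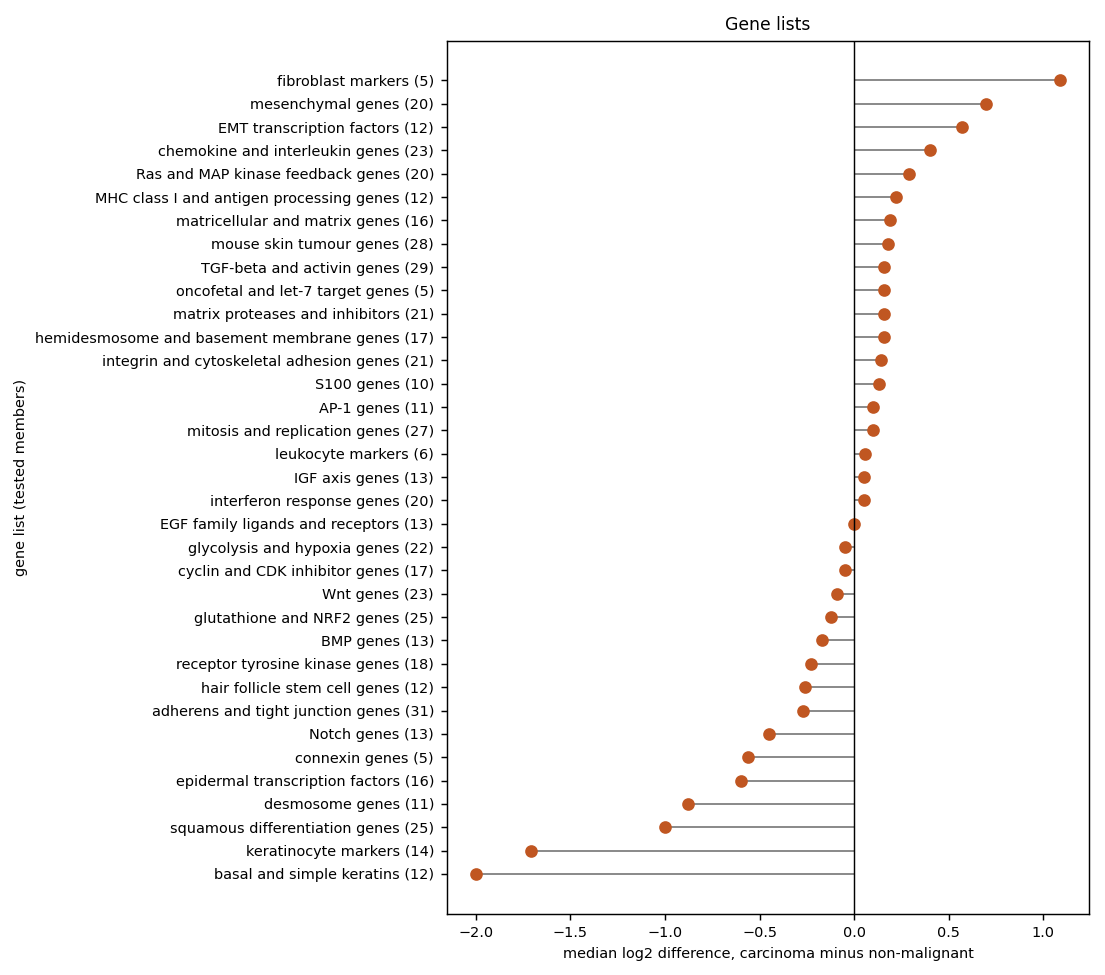
Median log2 difference (horizontal axis, epithelial carcinoma minus non-malignant lines) of the tested members of each gene list with 5 or more of them (vertical axis, number tested in parentheses). The medians run from -2.0 for basal and simple keratins to 1.09 for the 5 tested fibroblast markers, and the median of all genes tested was 0.00. Of the fibroblast markers, Col1a2, Col3a1 and Pdgfrb were highest in MSCP5, but Pdgfra was at 5.07 in MSCP5 and at 7.81 in B9.

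Lines also differed within each group. The median SD per gene was 0.42 among the carcinoma lines and 0.40 among the non-malignant lines. The 8 genes with the largest SD among carcinoma lines were Col17a1, Krtdap, Dmkn, Ctsz, Dsc3, Krt5, Krt6b and Prdx4. Col17a1, Dmkn and Krt5 were low in B9rassmad, SN161 and E4. The desmosomal cadherin Dsc3 was at 3.80, 3.62 and 3.52 there, and also low in B9 at 6.14 and PDVC57 at 6.67, against 10.95 to 11.75 in the non-malignant lines (difference -3.65, SE 1.80, adjusted p = 0.453). Krtdap, a keratinocyte differentiation protein, was at 13.22 in MSCP1, 12.72 in PDV and 12.31 in B9ras but at 3.97 to 4.31 in E4, B9rassmad, SN161 and PDVC57. Krt6b, an inducible keratin, was 14.19 in MSCP5 and 12.23 in B9 and at most 5.42 in PDVC57, E4, SN161 and B9rassmad.

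Prdx4, an X-linked endoplasmic reticulum peroxiredoxin, had a pattern of its own. It was between 3.21 and 3.74 in PDV, MSCP1, B9ras, PDVC57 and B9rassmad and between 9.57 and 11.41 in the other 8 lines, the non-malignant lines included. Ctsz, a lysosomal cathepsin, was at 10.58 or more in PDV, MSCP1, B9ras, B9rassmad and MSCP5 and at 4.43 or less in PDVC57, B9, E4 and SN161. Among the non-malignant lines the largest SDs included Fbln2, a matrix protein, at 12.17 in the third keratinocyte line and 9.71 in P6 but 4.29 in C5N and 3.88 in NK. Igfbp2, a binder of insulin-like growth factors, was instead higher in the other pair, with 11.89 in C5N and 12.43 in NK, 6.47 in the third keratinocyte line and 4.61 in P6. Wfdc2, a secreted protease inhibitor of epithelia, was at 12.05 in P6 and 10.74 in the third keratinocyte line but 4.59 in C5N and 5.10 in NK. In 8 carcinoma lines it was at 12.10 or more, and in MSCP5 at 3.71 (difference 3.78, SE 1.83, adjusted p = 0.444). Wfdc18 was highest in C5N at 13.35, with 7.23 in NK.

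Each line was also placed by genes chosen without it. The line was left out, the 200 genes of lowest p in the fit of the other 12 lines were taken, and the share at which the left-out line lay nearer to the carcinoma mean was counted, as a description with no test. This share was 92% for B9ras, 89.5% for PDV and PDVC57, 88% for E4, 86.5% for B9rassmad, 86% for MSCP1 and 84.5% for SN161. It was 61% for B9 and 26.5% for MSCP5. Of the non-malignant lines, C5N was nearer to the carcinoma mean at 42%, P6 at 46%, NK at 50.5% and the third keratinocyte line at 54%. Thus 7 carcinoma lines were placed with their group, while MSCP5 was placed with the non-malignant lines and the 4 non-malignant lines were placed with neither group. PDV, MSCP1 and B9ras each had 2 close arrays left in the fit. Other placed lines also had near arrays left in, against the carcinoma-pair median of 0.947. PDVC57 correlated at 0.974 with B9ras and 0.973 with PDV, and E4 with SN161 at 0.971.

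**Figure D4:**
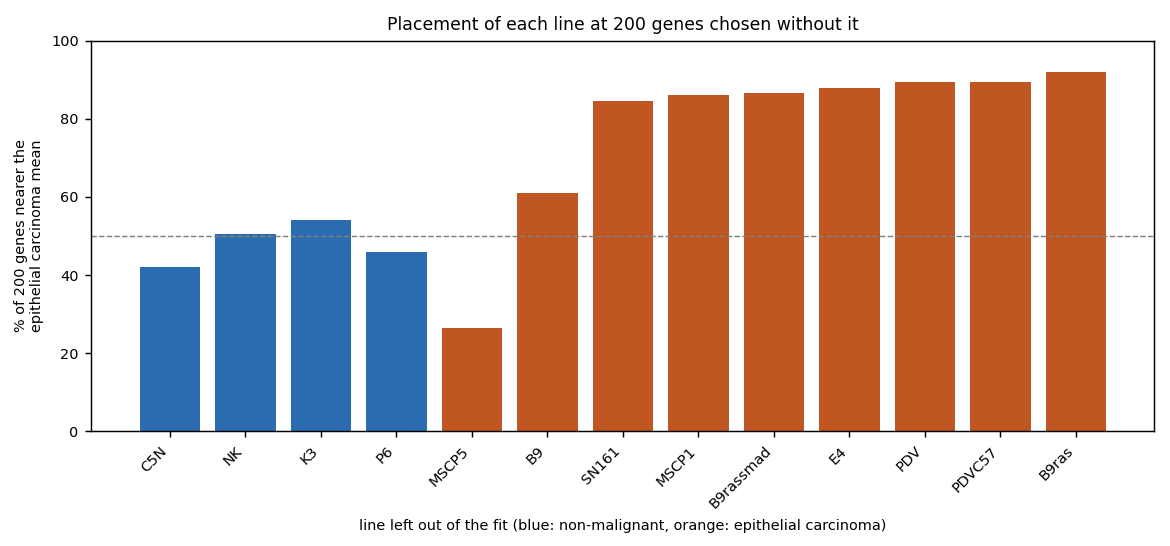
Percentage of 200 genes (vertical axis) at which a line left out of the fit lay nearer to the epithelial carcinoma mean than to the non-malignant mean, for the 4 non-malignant lines (blue; K3 is the third keratinocyte line) and the 9 carcinoma lines (orange). The dashed line marks an even split. The carcinoma lines run from 26.5% in MSCP5 to 92% in B9ras and the non-malignant lines from 42% in C5N to 54% in the third keratinocyte line.

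The set of called genes depended strongly on single lines. No gene was called in limma when PDV, B9ras, MSCP1 or PDVC57 was left out, with 1277, 1222, 1315 and 1276 genes at an unadjusted p under 0.05. The count was 4 without E4, 6 without SN161, 7 without P6, 8 without B9rassmad and 12 without C5N. It was 21 without the third keratinocyte line and 25 without NK, but only 11 and 7 of the 25 genes were among these. It was 60 without B9 and 177 without MSCP5 (1.48%; 70 higher, 0.584%, and 107 lower, 0.893%), and all 25 genes were among both sets. At those 177 genes MSCP5 itself lay nearer to the carcinoma mean in 48. With PDV, MSCP1 and B9ras averaged into 1 line no gene was called in limma (lowest adjusted p = 0.13), and 1190 were at an unadjusted p under 0.05. All 25 genes kept their direction in every fit that tested them. Those fits reuse most of the arrays by which the genes were chosen, so the kept direction is no separate support. Flot2 and Nr2f1 were called in 9 of the 13 fits without 1 line, Specc1 in 8 and Twist2 in 5. The other 21 genes were called in 2 to 4 of these fits.

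**Figure D5:**
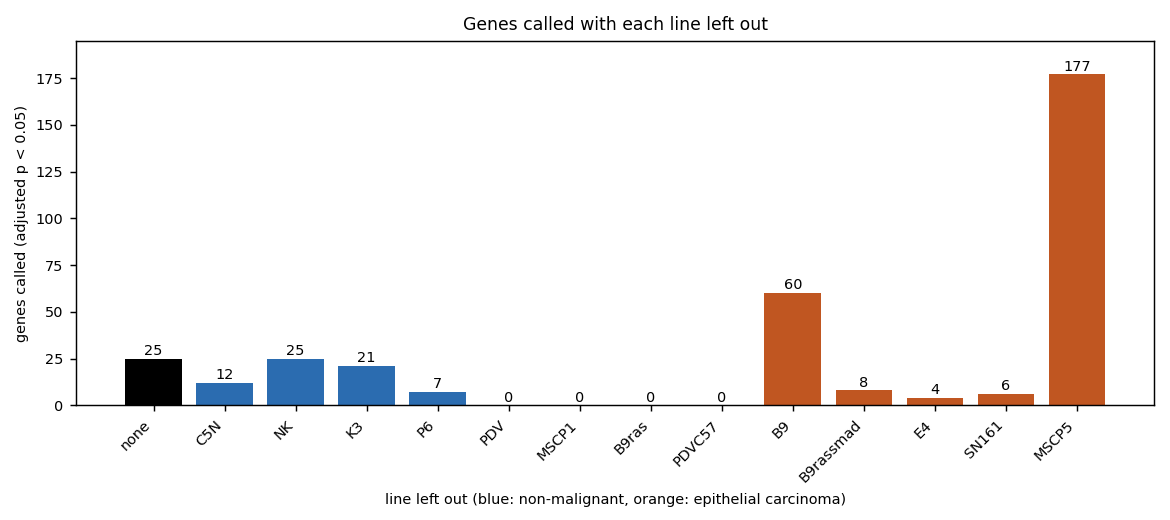
Number of genes called at an adjusted p under 0.05 (vertical axis, limma) in the fit of all 13 lines (black) and with each line left out (blue, non-malignant; orange, epithelial carcinoma; K3 is the third keratinocyte line). The count is 25 with all lines, 0 without PDV, MSCP1, B9ras or PDVC57, and 177 without MSCP5.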

How the data were processed

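Total RNA from 26 cell lines was hybridised as biotin-labelled cRNA, per the labels' protocols. The deposited log2 values are RMA values, as the submitters' processing notes state; the version is not given in the sources used here. RMA corrects background, quantile-normalises arrays and summarises probes, so a change in total RNA cannot be seen and differences near background are compressed. Precision is limited by the number of arrays. Of 45037 probe sets (array medians 5.04 to 5.15), 34945 had 1 gene symbol, 932 several and 9160 none in the probe table used. Each gene took its probe set of highest mean over all arrays (18193 genes), and 11981 above the array median in 2 or more of the 13 lines were tested with limma 3.58.1 (R 4.3.3; lmFit, eBayes, Benjamini-Hochberg adjustment), as 2 group means. Lines entered as separate samples although some share a name or lie close; replicates were numbered in deposition order and pair nothing.

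Genes named were the 12 called genes with the largest differences in each direction, up to 3 called members of each of 38 lists (724 entries, 38 without a gene here), EMT factors, mouse skin tumour genes, the 8 genes of largest SD in each group, and genes said to be chosen later. The members, lists and tests were chosen with earlier results of these data known. Exact tests used all divisions of the lines, of which the smallest p is 0.0014. The fit was run on simulated data in which lines were drawn independently, so the run does not cover close arrays such as PDV, MSCP1 and B9ras. There it recovered 52.2% of changes of 1 log2 unit, and 5 of its 157 calls were false. Promoter windows and gene names came from RefSeq (GRCm38.p6), and no coordinates of probe sets are given because the files name no build. Alternatives covered the filter, probe set, scaling, spread, name families, crosses and lines left out; averaging the 3 close arrays and the 200 genes for placing lines were chosen after seeing the data. Genotypes, and values of the genes they concern, are not reported here.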

Additional observations from a re-analysis of the deposited data

Results flagged for a closer look

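The 4 non-malignant and the 9 carcinoma lines were checked as separate groups for each gene. Of these 132 groups, 17 held a line whose gap to its nearest neighbour was large for the range of its group. Such a gap arises by chance in about 5% of groups, but the count of 17 is not read against that share. Several of the genes (Wfdc18, Wfdc2, Xist and Ptn) were chosen for their large SD, and Cdh1 chose the lines. MSCP5 accounted for 7 of these among the carcinoma lines. It was at 4.69 for Krt19 (nearest line 9.49), 6.33 for Tmprss13 (4.64), 4.45 for Sdr16c5 (3.43), 8.47 for Rcan1 (7.89), 5.90 for Wfdc18 (5.04), 3.71 for Wfdc2 (12.10) and 7.98 for Krt18 (11.28). In each of these it differed from the other carcinoma lines in the direction of the non-malignant mean. Leaving it out raised the number of called genes to 177.

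Other carcinoma lines stood apart in single genes. SN161 was at 7.26 for Nrp1 (nearest line 10.07) and at 10.49 for Vegfa (8.39). B9 was at 5.14 for Vim (11.45), and B9rassmad at 9.13 for Cdh1 (10.58), the gene by which the lines were chosen.

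Among the non-malignant lines, P6 was at 7.03 for Twist2 (nearest line 5.02) and NK at 8.69 for Eva1a (9.59). C5N was at 4.94 for Ptgs2 (10.96). The third keratinocyte line was at 13.12 for Xist (5.67), 3.5 for Ptn (10.13), a secreted growth factor, and 11.93 for Epgn (9.92).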

How the results depend on the processing

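The 25 called genes (12 higher, 13 lower) became 3 (3 and 0) with no filter on low values, where 1749 genes were at an unadjusted p under 0.05, and 13 (7 and 6) with the probe set of largest variance. They became 190 (78 and 112) with the spread shared by all lines, 74 (23 and 51) without the Spretus-cross carcinoma lines, 73 (34 and 39) with all non-spindle carcinoma lines and 92 (46 and 46) with the line of conflicting labels. That line, B9Smad, correlated at 0.982 with B9ras, which was already in the fit. With the 3 close arrays averaged there were 0 (0 and 0) in limma, and 1190 at an unadjusted p under 0.05. Leaving out 1 line gave 0 to 177 calls, 0 to 70 higher and 0 to 107 lower. A stricter filter gave 28, the mean of probe sets 26, centred arrays 23, a trended and robust prior 24, name family as a random block 35 and families averaged 23, of which 9 were among the 25. The cause of these shifts was not tested. No paired analysis was possible because the labels give no replicate numbers.

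For 65 single genes under these settings and the exact test, 1393 of 1752 values kept direction and side of the threshold. Of the rest, 325 lost the call, 30 fell under the threshold in genes not called, and 4 changed sign. Exact p-values are not adjusted, so passing under that test is not a call (Krt8: exact permutation p = 0.0126, limma adjusted p = 0.151). Only called genes could lose the call, and the 1393 values include uncalled genes that stayed uncalled. All 4 were Epcam, whose difference of 0.15 became -1.65 with all non-spindle carcinoma lines, -0.05 without P6, -0.3 without the third keratinocyte line and -0.04 without B9, and without 1 line reached at most 0.56. Specc1, at 1.41, was 0.61 (adjusted p = 0.609) with its probe set of largest variance. With 4 non-malignant arrays, 1 culture per line and quantile-normalised values, small differences and changes in total RNA cannot be seen, and signals near the array median are background.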

Other observations

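The 13 lines outside the comparison were set against the group means at the 25 called genes. B9Smad lay nearer to the epithelial carcinoma mean at 24 of them, A5 and H11 at 23, D3 at 22, 2945CA, D3DP and MSN2 at 21, MSC7A at 20, MSCb1, MSC12, MSC11B and CarB at 19 and CarC at 18. At the 200 genes of lowest p in the main fit, the share ran from 69% in CarC to 92% in B9Smad. The share over all genes tested was not counted. The highest lines were close to arrays that set the carcinoma mean. B9Smad correlated with B9ras at 0.982, A5 with E4 at 0.972 and H11 with E4 at 0.969. Eva1a was between 3.38 and 5.13 in these 13 lines, and Flot2 between 9.39 and 10.11, on the carcinoma side in each. Nr2f1 reached 12.35 in CarC and was lowest in MSCb1 at 5.16. Krt19 was at 9.42 in B9Smad but at 5.86 or less in the other 12, which include the 7 lines with spindle pathology. Hoxc13 was at 7.23 in MSC12 and 6.21 in MSC11B, within or near the non-malignant range of 6.24 to 7.80.

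Prdx4 was also low in B9Smad at 3.73, A5 at 3.63 and H11 at 3.63 and between 10.95 and 11.74 in the other 10 lines outside the comparison.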
